A study of Drosophila melanogaster with 3 samples.

Results

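The Rab GTPase genes of Drosophila melanogaster were taken as the protein-coding genes of the Ensembl annotation whose symbol is Rab followed by a digit, or RabX followed by a digit. The rule gave 33 genes of 13968 protein-coding genes, with 53 transcription start sites (TSS) of 19275 distinct positions. A total of 3 symbols that begin in the same way, Rab3-GAP, Rab3-GEF and Rab3GAP1, name regulators of Rab proteins and were not members. Chromatin binding was mapped by ChIP-seq, in which DNA bound to a protein is precipitated and sequenced, in 3 biological replicates of whole prepupae of mixed sex aged 24 h. The animals came from 1 transgenic line that stably expresses Coop (CG1621) with a green fluorescent protein (GFP) tag at its C-terminal end. Whether the line keeps untagged Coop is not given in the sources used here. Coop is known as a corepressor that interacts with Pangolin, the TCF factor of Wingless signalling. All 3 libraries formed 1 group, and no second genotype, stage or untagged line was profiled. The labels' free text calls each library an input control, while their assay title, antibody field and deposited notes describe immunoprecipitated libraries with a separate control, and the libraries were read here as immunoprecipitated ones. Whole animals mix all tissues, so a summit does not say in which cells the protein was bound.

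Rab proteins are small GTPases that switch between an inactive, GDP-bound form in the cytosol and an active, GTP-bound form on membranes, where they recruit tethers, motors and other effectors. Each Rab marks certain compartments of the secretory or endocytic pathway, so the set of Rab proteins in a cell helps to define its membrane traffic. Exchange factors load GTP, GTPase activating proteins switch the protein off, and prenylation by the geranylgeranyl transferase gives it its membrane anchor. In prepupae, larval tissues are broken down and adult tissues are built, with extensive secretion, endocytosis and autophagy.

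Peaks were deposited as a thresholded list with 6626 entries and 4 relaxed lists with 30000 regions each, for the pooled data and for every replicate. A gene was called when a peak summit, the base of highest signal within a peak, lay within 500 bp of any of its TSS. In the thresholded list 10 Rab genes were called: Rab1, Rab2, Rab5, Rab6, Rab7, Rab8, Rab14, Rab30, Rab32 and Rab39. They held 11 of the 2683 promoter summits of that list, and Rab5 was the only Rab gene with 2. The signal, a score without a unit that the authors' software gave each peak, measures its strength. It was used through its rank within a list, where 1 is the strongest, since its scale differed between lists.

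The DNA next to the summits of 4 of these genes is shown as examples with motif matches. Stretches at Rab1, Rab7 and the weaker Rab5 summit also carried matches to motifs counted below and are not shown. The window was 100 bp on either side of the summit, and only stretches of it free of annotated exons are printed. The summits of Rab8 and Rab14 lie in an exon and so outside their printed stretches. For Rab8, Rab30 and Rab14 the stretch lies directly before the TSS, and for Rab8 and Rab30 it reaches back to an exon of the neighbouring gene. For Rab5 it is the whole window, inside an intron. All are from the RefSeq sequence of the release 6 assembly (dm6), read 5′ to 3′ along the strand of the gene. Capitals mark matches, on either strand, to the DNA replication-related element (DRE) TATCGATA in Rab8 and Rab30, to core promoter Motif 1 GGTCACACT in Rab14, and to the E-box CACGTG and the TATA box TATAAA in Rab5. The stretches are chr3L:19871079-19871138 for Rab8 (minus strand), chr2L:7032607-7032720 for Rab30 (minus strand), chr2L:14355111-14355144 for Rab14 (plus strand) and chr2L:2363672-2363872 for Rab5 (minus strand).
Rab8: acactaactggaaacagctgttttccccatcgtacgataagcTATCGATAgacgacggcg
Rab30: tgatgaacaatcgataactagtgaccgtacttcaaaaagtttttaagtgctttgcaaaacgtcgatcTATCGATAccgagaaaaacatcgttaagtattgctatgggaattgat
Rab14: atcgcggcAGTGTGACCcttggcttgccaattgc
Rab5: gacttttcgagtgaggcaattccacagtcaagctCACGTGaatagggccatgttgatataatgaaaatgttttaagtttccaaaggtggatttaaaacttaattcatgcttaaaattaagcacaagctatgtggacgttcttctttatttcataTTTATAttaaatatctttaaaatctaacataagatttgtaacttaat
The middle of the DRE lay 36 bp from the thresholded summit of Rab8 and 56 bp from that of Rab30, and the middle of Motif 1 lay 88 bp from that of Rab14. In the window of 100 bp on either side of the summit, the DRE was present at 3 of the 11 Rab summits (Rab8, Rab30 and Rab2), against 4.96% of all 2683 promoter summits. Motif 1 was present at 1 Rab summit, against 3.76% of all promoter summits, and the E-box at 1, against 2.72%. With so few summits these counts are descriptions, and a match is not evidence that a factor binds there.

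The other motifs searched were also counted on both strands in the same window. The initiator letters TCAGT were present at 5 Rab summits (Rab1, Rab32, Rab14, Rab7 and the weaker Rab5 summit), against 35.97% of all promoter summits, and TATAAA at 4 (Rab5, Rab6, Rab1 and Rab32), against 23.1%. The GAGA repeat GAGAGAG was present at the weaker Rab5 summit alone, against 9.06%. Ohler motif 6, GGTATTTT, and Ohler motif 7, CATCNCTA, were at 0 Rab summits, against 3.06% and 4.73% of all promoter summits. The GC content of the window had a median of 45.8% over the Rab summits, against 43.8% over all promoter summits, whose quartiles were 35.8% and 50.2%. The Rab summits differed widely among themselves, between 29.4% at the stronger Rab5 summit and 54.7% at both Rab6 and Rab7.

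The 10 called genes were 30.3% of the 33 Rab genes (exact 95% binomial interval 15.6% to 48.7%), against 21.1% of all protein-coding genes. The interval is wide and includes the share of all genes, so this count neither shows nor excludes a difference between the family and all genes. To see the replicates on an equal footing, the 6626 regions of highest signal were taken from each replicate list. Replicate 1 called 10 Rab genes (30.3%), against 25.9% of all genes. Replicate 2 called 7 Rab genes (21.2%), against 21.3% of all genes. Replicate 3 called 6 Rab genes (18.2%), against 18.1% of all genes. The mean was 7.67 ± 2.08 Rab genes, or 23.2% ± 6.31 of the family, against 21.8% ± 3.93 of all genes (SD, n = 3). The difference was smaller than the spread between replicates. Both shares fell from replicate 1 to replicate 3, so these SDs include shifts common to Rab genes and all genes. All 3 replicates called the same 5 Rab genes, Rab1, Rab5, Rab6, Rab8 and Rab32, which is 15.2% of the family (interval 5.11% to 31.9%), against 12.7% of all genes. These intervals cover the counting error of genes only, and the read depth of the libraries is unknown because read counts were not analysed here.

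**Figure D1:**
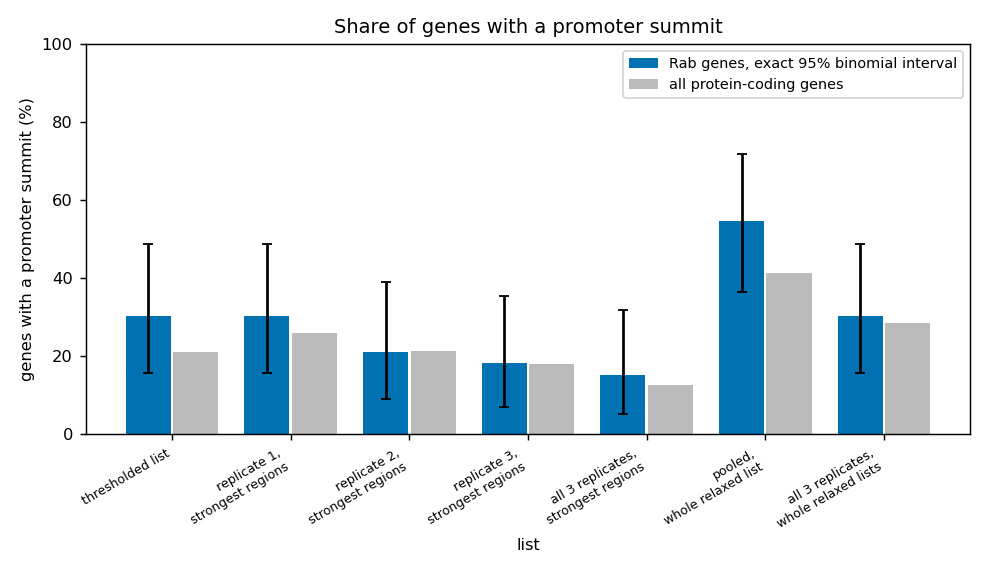
Share of genes with a summit within 500 bp of a TSS, in percent, for the 33 Rab genes (blue, bars of the exact 95% binomial interval) and all 13968 protein-coding genes (grey), in each list or combination of lists. The interval of the Rab genes includes the share of all genes in every pair of columns.

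The relaxed lists hold weaker regions, down to rank 30000. In the pooled relaxed list 18 Rab genes had a promoter summit (54.5%, interval 36.4% to 71.9%), against 41.3% of all genes. In the relaxed lists of all 3 replicates 10 Rab genes had one (30.3%), against 28.5% of all genes. These 10 are not the thresholded 10: they include Rab21, Rab23, Rab27 and Rab40, which the thresholded list lacks, and they lack Rab2, Rab7, Rab14 and Rab30, which had no promoter summit in the replicate 3 list. A total of 8 Rab genes had no promoter summit in any of the 5 lists (24.2%, interval 11.1% to 42.3%), against 40% of all genes. The interval of the Rab genes included the share of all genes in each of these counts.

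**Figure D2:**
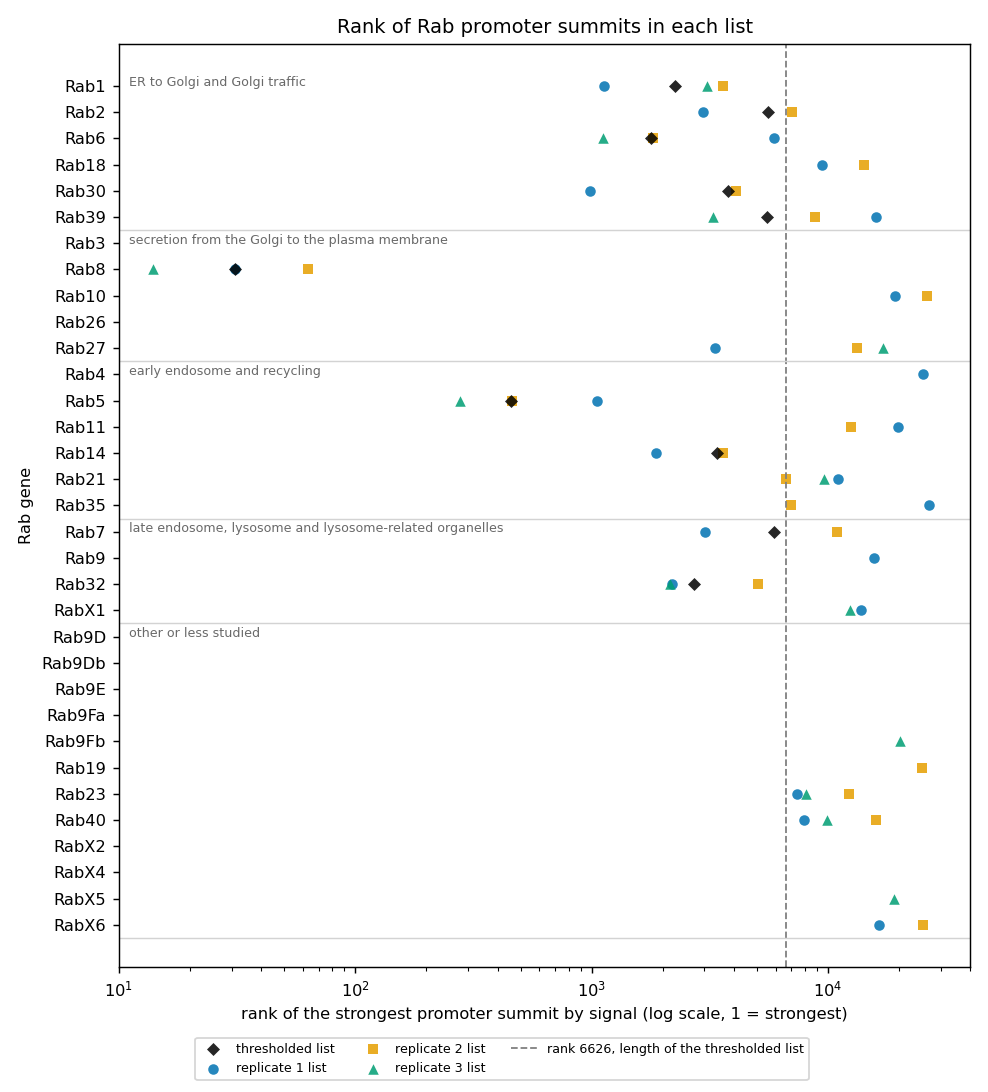
Rank by signal of the strongest promoter summit of each of the 33 Rab genes (rows, grouped by known role) in the thresholded list and in the list of each replicate, on a log axis where 1 is the strongest. Rab8 lies far to the left of all others, with ranks between 14 and 63, and no gene of the lowest block lies left of the dashed line at rank 6626.

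By role, 5 of the 6 Rab genes of traffic from the endoplasmic reticulum (ER) to and through the Golgi were called in the thresholded list (all but Rab18), where 21.1% of all genes were called, and 2 of the 6 in the strongest regions of all 3 replicates, where 12.7% of all genes were. Of the 5 genes of secretion from the Golgi to the plasma membrane, 1 was called, which was Rab8. Early endosome and recycling had 2 of 6 (Rab5 and Rab14), and late endosomes, lysosomes and lysosome-related organelles had 2 of 4 (Rab7 and Rab32), beside the same 21.1% of all genes. Of the 12 other or less studied members 0 were called, and 6 of them had no promoter summit in any list, where 40% of all genes had none. Members of this group with repeated DNA around the TSS, described below, were Rab9D, Rab9Db, Rab9E, Rab9Fa, Rab9Fb and RabX2. The part of that in these counts was not tested. The order of the roles depended on the setting. When each summit was given only to the gene with the nearest TSS, 17.1% of all genes were called, and Rab30 and Rab39 were lost. The ER and Golgi genes then had 3 of 6, beside an unchanged 2 of 4 for the late endosomal and lysosomal genes. With only the peaks found within 100 bp in every replicate, 10.7% of all genes were called. The ER and Golgi genes then had 1 of 6 (Rab1) and secretion 1 of 5 (Rab8). Early endosome and recycling had 1 of 6 (Rab5), and late endosomes and lysosomes 1 of 4 (Rab32). The role groups were chosen with earlier results of these data known. Rab2 and Rab39, counted here with the ER and Golgi genes, are also linked to late endosomal or lysosomal traffic. The count of 5 of the 6 depends on that placing. The role groups are small, and no test was made between them.

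Among the ER and Golgi genes, Rab6, which acts in traffic within and back from the Golgi, had the strongest thresholded summit. Rab6 (FBgn0015797) lies on 2L from 12107221 to 12109116 on the minus strand. Its signal was 432 (rank 1783) in the thresholded list, and 59.1 (rank 5893), 188 (rank 1815) and 191 (rank 1113) in replicates 1, 2 and 3. The summits lay in an exon outside the coding sequence, 179 bp downstream of the TSS in the thresholded list and 42 to 197 bp downstream in the replicates. Replicate 1 was thus the weakest by rank, and its summit was 137 bp from the thresholded one. The thresholded summit also lay 480 bp upstream of the TSS of Phae1, a serine protease gene on the other strand.

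Rab1, the GTPase of ER to Golgi transport, has its own promoter with no divergent neighbour. Rab1 (FBgn0285937) lies on 3R from 21266029 to 21269060 on the minus strand. Its signal was 373 (rank 2248) in the thresholded list, and 156 (rank 1129), 118 (rank 3604) and 100.5 (rank 3068) in replicates 1, 2 and 3. The 3 replicate summits spanned 77 bp across the TSS, from 49 bp upstream in replicate 3 to 28 bp downstream in replicate 2. Replicate 1 was the strongest by rank, and all 3 ranks lay inside the strongest 6626 regions.

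Rab30, a Golgi-associated Rab, had a signal of 264 (rank 3759) in the thresholded list, and of 167 (rank 984) and 108 (rank 4063) in replicates 1 and 2. In replicate 3 its nearest summit was 8442 bp away. Rab30 (FBgn0031882) lies on 2L from 7030493 to 7032606 on the minus strand, back to back with Caper, an RNA-binding splicing factor gene on the other strand. The thresholded summit lay 100 bp upstream of Rab30 and 15 bp upstream of Caper, so Caper was the nearer gene. Here, as at every shared promoter, binding at one gene and at its neighbour cannot be told apart.

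Rab39 and Rab2 were near the lower end of the thresholded list. Rab39 (FBgn0029959, X, 7734923 to 7736756, plus strand), which in flies is linked to endosomal and lysosomal traffic as well, had a signal of 199 (rank 5510) in the thresholded list, and 24.5 (rank 15976), 58.6 (rank 8764) and 96.8 (rank 3255) in replicates 1, 2 and 3. Only replicate 3 placed it among its strongest regions. The thresholded summit was 381 bp upstream of the Rab39 TSS, the farthest of all called members. It was also 104 bp upstream of the nearest TSS of Pdp, a gene of a pyruvate dehydrogenase phosphatase. Another Pdp TSS lies 272 bp from that of Rab39, so the summit, in an exon outside the coding sequence, lay between Pdp starts. Rab2 (FBgn0014009, 2R, 6696739 to 6699469, plus strand), which acts at the Golgi and in the fusion of late endosomes and autophagosomes with lysosomes, had a signal of 198 (rank 5555), and 92.8 (rank 2958) and 71.5 (rank 7013) in replicates 1 and 2. In replicate 3 the nearest summit was 13596 bp away. Where Rab2 had a summit it lay at nearly the same base, 9 to 16 bp upstream of the TSS, and the thresholded summit was 68 bp upstream of Mob4, a gene of the Mob family of kinase adaptors.

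Rab8, which directs vesicles from the Golgi and recycling endosomes to the plasma membrane, had by far the strongest summit of the family. Rab8 (FBgn0262518) lies on 3L from 19867488 to 19871078 on the minus strand. Its signal was 2857 (rank 31) in the thresholded list, and 871 (rank 31), 914 (rank 63) and 1112 (rank 14) in replicates 1, 2 and 3. It was among the strongest 63 of 30000 regions in every replicate, and no other Rab gene came above rank 278 in any list. Only 0.745% of the called protein-coding genes had a stronger summit in the thresholded list. The summits of the 3 replicates spanned 35 bp and lay in an exon outside the coding sequence, 6 to 41 bp downstream of the TSS. Rab8 shares this promoter with Usp32, a ubiquitin protease gene, whose TSS is 61 bp away on the other strand, and the thresholded summit lay 82 bp upstream of it. The thresholded region was 571 bp wide and covered both starts.

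Among the early endosome genes, Rab5 and Rab14 were called. Rab5 (FBgn0014010), which controls the fusion of early endosomes, lies on 2L from 2359142 to 2365273 on the minus strand and has 6 TSS. Its strongest summit had a signal of 952 (rank 454) in the thresholded list, and 161 (rank 1058), 412 (rank 461) and 376 (rank 278) in replicates 1, 2 and 3. It lay inside an intron, 268 bp upstream of the internal TSS at 2363504 and not at the first TSS, which Rab5 shares with Axud1 at 72 bp. The replicate summits spanned 32 bp, the narrowest span among the 5 genes called in all replicates, although replicate 1 was lower in rank than the other two. Only 10.3% of the called genes had a stronger summit. The weaker Rab5 summit, 302 bp upstream of the TSS at 2362781, had a signal of 230 (rank 4609) in the thresholded list, and 100 (rank 2581), 84.6 (rank 5648) and 55.0 (rank 7072) in replicates 1, 2 and 3. In the pooled relaxed list Rab5 had 5 promoter summits.

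Rab14 (FBgn0015791, 2L, 14355145 to 14358764, plus strand), known from endosome and phagosome traffic, had a signal of 282 (rank 3404) in the thresholded list, and 120 (rank 1871) and 118 (rank 3591) in replicates 1 and 2. These summits lay 27 to 66 bp downstream of the TSS. In replicate 3 the nearest summit was outside the window, 615 bp from a TSS, at rank 4152. The thresholded list also held a Rab14 summit at 627 bp, with a signal of 254, so the gene has a region just outside the window in both. The divergent gene l(2)34Fd starts 60 bp away, and the thresholded summit lay 126 bp upstream of it.

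**Figure D3:**
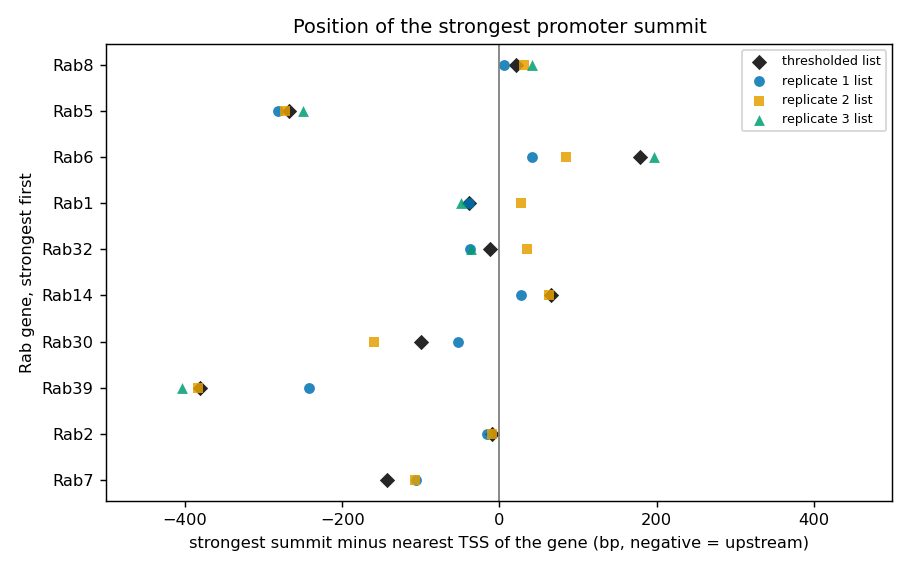
Distance in bp from the nearest TSS of the gene to its strongest promoter summit, negative upstream, for the 10 Rab genes called in the thresholded list, strongest first, with 1 symbol per list. The summits of Rab8 stay within 6 to 41 bp downstream, those of Rab5 within 250 to 282 bp upstream, and those of Rab39 lie 242 to 404 bp upstream.

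Of the late endosomal and lysosomal genes, Rab32 was called in every replicate and Rab7 was not. Rab32 (FBgn0002567, 2R, 9177864 to 9186342, minus strand), known in flies as lightoid for its part in making eye pigment granules, had a signal of 329 (rank 2705) in the thresholded list, and 111 (rank 2193), 92.3 (rank 5059) and 126 (rank 2150) in replicates 1, 2 and 3. Replicate 2 was the weakest by rank, and its summit lay 35 bp downstream of the TSS where the other two lay 38 and 36 bp upstream. Rab32 has 5 TSS, and its thresholded summit, 12 bp upstream of the first, was near no other protein-coding gene. Rab7 (FBgn0015795, 3R, 23993008 to 23995452, plus strand), which drives the maturation of late endosomes and their fusion with lysosomes, had the weakest thresholded summit of the family, with a signal of 187 (rank 5903), and 91.9 (rank 3001) and 48.1 (rank 10901) in replicates 1 and 2. In replicate 3 the nearest summit was 9823 bp away. The Rab7 summit lay in an intron, 143 bp upstream of the TSS at 23993733, and not at the promoter that Rab7 shares with Epp.

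A group of 4 genes had a promoter summit in all 3 relaxed replicate lists and none in the thresholded list. Rab27, a Rab of regulated secretion in mammals and of synaptic vesicles in flies, had a pooled signal of 151 (rank 7710), and 86.2 (rank 3310), 39.6 (rank 13263) and 25.7 (rank 17042) in replicates 1, 2 and 3. It was the only Rab gene called in the strongest regions of a replicate, replicate 1, and not in the thresholded list. Rab21, which in mammals carries integrins through early endosomes, had a pooled signal of 144 (rank 8095), and 35.3 (rank 11018), 74.8 (rank 6638) and 42.8 (rank 9568) in the replicates. In replicate 2 it was the first Rab gene outside the strongest 6626 regions, where the signal at the limit was 74.9.

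Rab23, known in mouse as a negative regulator of Hedgehog signalling, and Rab40, a Rab that also carries a ubiquitin ligase adaptor box, were weaker. Rab23 had a pooled signal of 120 (rank 9838), and 49.8 (rank 7390), 42.8 (rank 12270) and 49.7 (rank 8059) in the replicates. Rab40 had a pooled signal of 98.8 (rank 11859), and 47.0 (rank 7909), 32.6 (rank 15974) and 41.6 (rank 9923). Neither reached the strongest regions of any replicate. The divergent neighbour of Rab23, at 421 bp, is plx, a gene of the TBC family of GTPase activating proteins, and it was not called in the thresholded list. The summits lay within 72 bp of each other for Rab21 and within 67 bp for Rab27, but up to 410 bp apart for Rab23 and up to 610 bp for Rab40, so the strongest summits of Rab23 and Rab40 were not at 1 place in all replicates.

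The 8 genes without a promoter summit in any list were Rab3, Rab26, RabX2, RabX4, Rab9D, Rab9Db, Rab9E and Rab9Fa. Rab3, the Rab of synaptic vesicles, had its nearest thresholded summit 2003 bp from the TSS, and Rab26, known from secretory granules in mammals, 14203 bp. The distances were 1419 bp for Rab9D, 2359 bp for Rab9Db, 32749 bp for Rab9E, 14255 bp for Rab9Fa, 32278 bp for RabX2 and 17346 bp for RabX4. A total of 5 of these 8 genes have DNA around their TSS that is repeated elsewhere on the chromosome arms. Of the 31-base words within 500 bp of the TSS, the share that occurs more than once was 75.3% for Rab9E, 70.5% for Rab9Fa, 62.1% for Rab9Db, 44.5% for Rab9D and 32.7% for RabX2. It was 5.46% for Rab9Fb and 0% for the other 27 Rab genes, which include all 10 called ones. How reads with several matches were treated is not given in the sources used here, and the part of this repetition in the missing summits was not tested.

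The window decided some members. A window of 250 bp lost Rab5 and Rab39, and one of 1000 bp gained Rab10, Rab18 and Rab35. The called gene farthest from its summit was Rab39 at 381 bp, and the nearest gene outside was Rab10, a Rab of polarized secretion, whose thresholded summit lay 543 bp from the TSS with a signal of 231. Rab39 itself had a stronger thresholded summit, with a signal of 423 (rank 1845), at 604 bp. That summit lay nearer to a TSS of Pdp than to the TSS of Rab39.

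Features of gene structure that the rule did not use varied among the called Rab genes. A divergent promoter, with a gene on the other strand starting within 1000 bp upstream, was present in 18 of the 33 Rab genes (54.5%), against 36.2% of all genes. Of the 18, 8 were called, and of the other 15, 2 were called, which were Rab1 and Rab32. Over all genes, 30.96% of those with a divergent promoter were called, against 15.6% of those without. Of the 6 Rab genes with 3 or more TSS 4 were called, and of the other 27 Rab genes 6 were called, while over all genes the shares were 51.3% with and 18.5% without. A gene with more TSS has more windows in which a summit can be counted.

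Chromosome X held 13 Rab genes (39.4%), against 15.7% of all genes. Of these 13, only Rab39 was called, against 9 of the 20 Rab genes elsewhere. Over all genes the shares called were 21.6% on X and 21.0% elsewhere, so X as a whole did not show the lower share. A total of 6 of the 13 X-linked Rab genes are those with repeated DNA, and the part of that in the count was not tested. The called Rab genes had a median length of 2882 bp, against 3758 bp for all called genes, and those not called had 1518 bp, against 1927 bp for all genes not called.

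The strongest summits of the called Rab genes were close in median height to those of all called genes. Their median signal in the thresholded list was 305, against 308 for all 2953 called genes, and 5 of the 10 lay above that median of all called genes. The median distance to the nearest TSS of the gene was 83 bp, against 113 bp for all called genes. The own gene was the nearest in 8 of 10 (80%), against 79.6%, and the exceptions were Rab30 and Rab39. The summit also lay within 500 bp of another protein-coding gene in 6 of 10 (60%), against 42.5%. It lay within 100 bp of a TSS of its own gene in 6 of 10 (60%), against 45.8%. A divergent promoter was present in 8 of the 10 genes (80%), against 53.0% of all called genes. With 10 genes, each gene moves a share by 10 percentage points, and no test was made of these differences.

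The regulators and effectors of Rab proteins were described from a list of 78 names written from general knowledge, of which 72 matched a gene. In the thresholded list 20 were called (27.8%, interval 17.9% to 39.6%), against 21.1% of all genes, and 10 were called in the strongest regions of all 3 replicates (13.9%), against 12.7% of all genes. The interval includes the share of all genes, and the share in all 3 replicates was near that of all genes. The strongest was Evi5, a GTPase activating protein known to act on Rab11 in flies, with a signal of 2018 and rank 77 in the thresholded list, and ranks 134, 137 and 39 in replicates 1, 2 and 3. Rab11 itself had no promoter summit in the thresholded list and rank 17542 in the pooled relaxed list. The exchange factor gene spri, related to those that activate Rab5, had a signal of 1211 at rank 267, with replicate ranks 239, 585 and 131. The effector genes Vps33B, of a membrane fusion complex, and Rbsn-5, a Rab5 effector, had signals of 1014 at rank 382 and 740 at rank 723. Both were within the strongest 1423 regions of every replicate.

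The rest of the 8 strongest were wkd and sky, of the TBC family of GTPase activating proteins, the myosin V gene didum, and Rip11, a Rab11 effector. Their signals in the thresholded list were 585 for wkd, 459 for sky, 472 for didum and 432 for Rip11, and all 4 were called in the strongest regions of every replicate. By role, 3 of 19 exchange factors (15.8%), 5 of 13 GTPase activating proteins (38.5%) and 7 of 35 effectors and tethers (20%) were called, against 21.1% of all genes. The intervals, 3.38% to 39.6%, 13.9% to 68.4% and 8.44% to 36.9%, each include the share of all genes. All 5 genes of prenylation and membrane cycling were called in the thresholded list, against 21.1% of all genes. Their interval, 47.8% to 100%, was the only one by role that lay above the share of all genes. In the strongest regions of all 3 replicates 0 of these 5 genes were called, where 12.7% of all genes were. They were singled out after their values were seen: RabGGTa and RabGGTb, the subunits of the Rab geranylgeranyl transferase, with signals of 263 and 239, qm, of geranylgeranyl diphosphate synthesis, with 243, Gdi, which extracts Rab proteins from membranes, with 200, and Rep, which escorts new Rab proteins to the transferase, with 180. All 5 thus lay in the lower part of the thresholded list, below the median signal of all called genes.

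**Figure D4:**
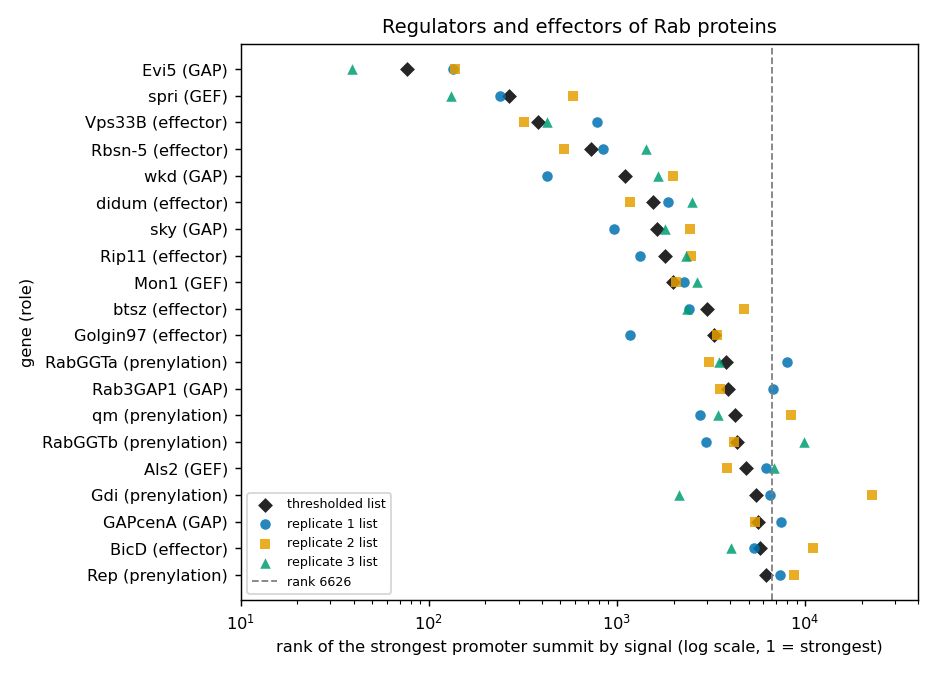
Rank by signal of the strongest promoter summit of the 20 called regulators and effectors of Rab proteins (rows, with their role) in the thresholded list and in the list of each replicate, on a log axis where 1 is the strongest. Evi5 lies between ranks 39 and 137 in all lists, while the prenylation genes each have at least 1 replicate to the right of the dashed line at rank 6626 or without a summit.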

How the data were processed

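Chromatin immunoprecipitation was sequenced from 3 biological replicates of 1 group. Chromatin was sheared by sonication to between 200 and 800 bp, per the labels. Per the deposited notes, every replicate list rests on its own dm6 alignment and on 1 control alignment common to all, so the lists are not independent of each other. For the peak caller, its settings and the threshold on agreement between replicates, nothing is given in the sources used here. The signal column, as deposited, is a score without a unit from the authors' software. The deposited −log10 q value was 4.19 for every thresholded peak, a cap, and was not used for ranking. The summit offset, another deposited column, gave the summit as start plus offset plus 1. The thresholded list had 6534 distinct intervals among 6626 entries, and each entry kept its own summit.

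Genes came from Ensembl release 115 (BDGP 6.54). All 126626 intervals were compared with the arm lengths of the RefSeq release 6 assembly, and 0 lay beyond an arm end. Counts used Python 3.11.15 with pandas 2.3.3, numpy 2.4.6, scipy 1.17.1 for exact binomial intervals, and matplotlib 3.10.9 for figures. The assignment of summits to genes was tested on simulated data. No test across groups was possible with 1 group, so shares stand beside those of all genes. Signal limits were compared by taking the 6626 strongest regions per replicate.

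Members, gene lists, motifs and the role groups were chosen with earlier results of these data known. Genes were named by rule: called Rab genes, Rab genes whose call differed between the thresholded list and the replicates, those with a relaxed summit in all 3 replicates, the 8 strongest regulators, and genes that share a Rab summit. The prenylation genes, the other Rab genes with values and the divergent neighbours without a shared summit lie outside it and were picked once their values were known. Of 78 regulator names, 6 matched no gene. Alternatives changed the window, the TSS used, the number of regions and the motif window, and left out each replicate.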

Additional observations from a re-analysis of the deposited data

How the results depend on the processing

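Counts of genes were recomputed under 32 alternatives, of which 23 stayed within 1.5 times. The share of all genes called, 21.1% in the thresholded list, also moved with the setting. For the 10 Rab genes called there, the 3313 strongest entries left 5, beside 11.9% of all genes. Peaks found within 100 bp in every replicate left 4 (Rab1, Rab5, Rab8 and Rab32), beside 10.7%. The pooled relaxed list gave 18, beside 41.3%. The same changes turned the 20 regulators into 11, 10 and 36, beside the same shares of all genes. The mean of 7.67 over replicates became 18.3 with the whole relaxed lists. The 5 Rab genes called in all replicates became 2 with 3313 regions per replicate and 10 with the whole relaxed lists. In the latter 28.5% of all genes were called. Windows of 250 and 1000 bp gave 8 and 13 Rab genes, beside 17.8% and 24.9% of all genes. The nearest or the most upstream TSS alone gave 8 each, beside 17.1% and 18.6% of all genes. Leaving out a replicate put the mean between 6.5 and 8.5 and the genes called in all remaining replicates between 5 and 7. Of 50 alternatives for ranks, 6 left no promoter summit (Rab5 and Rab39 at 250 bp, and Rab2, Rab7, Rab14 and Rab30 in replicate 3). Of the other 44, 36 lay within the SD of the replicate ranks, which most of them helped to set. Changes of the window mostly returned the same summit and so the same rank. The Rab39 rank went from 5510 to 1845 at 1000 bp, at another summit, and still lay within that wide SD. The count of 36 therefore does not measure how stable the ranks are. Motif counts stayed within 1.5 times in 11 of 16. The causes were not tested. No pairing of samples between groups was possible because the libraries form 1 group. Unknown depth, 1 shared control and the lack of an untagged line limit every value, and a missing summit says only that none was deposited within the window.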

Other observations

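A total of 6 Rab genes had a thresholded summit between 500 and 1000 bp from a TSS, outside the promoter window. The distances were 540 and 604 bp for Rab39, 543 bp for Rab10, 627 bp for Rab14, 766 bp for Rab35, 844 bp for Rab30 and 927 bp for Rab18. The summits at 604 bp for Rab39, 844 bp for Rab30 and 927 bp for Rab18 lay nearer to a TSS of a neighbour. These neighbours were Pdp, Caper and RpL35. The signals were 231 for Rab10, 254 for Rab14, 208 for Rab35, 285 for Rab30 and 319 for Rab18. Rab10, Rab18 and Rab35, of secretion, ER and Golgi traffic, and recycling, were called only through these more distant summits, with a window of 1000 bp.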
